A study of Homo sapiens with 18 samples.

Results

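The MHC class I presentation genes described here are HLA-B, HLA-C, HLA-E, B2M, TAP1, TAP2, TAPBP, PSMB9 and NLRC5, 9 of the 58037 gene IDs in the RNA sequencing count table of 3 human acute myeloid leukemia (AML) cell lines. They were chosen by name, as listed genes of the pathway, and all 9 were measured in every library and passed the filter on low counts in every comparison. MOLM13 cells, which carry the MLL-AF9 fusion, received 500 nM SNDX-50469 with 500 nM OTX015, 500 nM SNDX-50469, 500 nM OTX015, or neither (control), with 2 libraries per group. MV4-11 cells, with an MLL rearrangement, received 1000 nM SNDX-50469 or neither, with 2 libraries in each. OCI-AML3 cells, which have germline MLL and mutant NPM1, received 500 nM SNDX-50469 or neither, with 3 libraries per group. SNDX-50469, named VTP50469 in the labels, is a Menin inhibitor, OTX015 is a BET protein inhibitor, and exposure lasted 16 h. Each line is a long-passaged culture from a single patient, so a line stands for itself and not for its genotype. The medium, with 20% FBS, was IMDM for MV4-11 and RPMI for the other lines.

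A class I molecule is a polymorphic heavy chain bound to the invariant light chain beta-2-microglobulin, and it shows peptides from the inside of the cell to CD8 T cells. The peptides are cut by the proteasome, pumped into the endoplasmic reticulum by the TAP transporter and loaded with the help of tapasin. NLRC5 is the transactivator of class I genes, and interferon gamma raises the whole pathway, in part through IRF1. Loss of class I or class II expression is a known route by which leukemia cells escape T cells.

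HLA-B, HLA-C and HLA-E encode heavy chains, and HLA-E presents mainly leader peptides of other heavy chains to NKG2 receptors on NK cells. They lie in the MHC region of chromosome 6 at 31353875 to 31357179 (HLA-B), 31268749 to 31272092 (HLA-C) and 30489509 to 30494194 (HLA-E), in RefSeq coordinates of GRCh38.p14. TAP1 (32845209 to 32853704) and TAP2 (32821831 to 32838739) encode the transporter subunits, TAPBP (33299694 to 33314078) encodes tapasin, and PSMB9 (32854192 to 32859851) encodes an interferon-inducible catalytic subunit of the immunoproteasome. B2M, the light chain gene, lies on chromosome 15 at 44711517 to 44718145 and NLRC5 on chromosome 16 at 56989557 to 57083520. The first bases of TAP1 and PSMB9 are 488 bases apart and the genes point away from each other. HLA heavy chain genes share long stretches of near-identical sequence and differ between lines in allele, so reads can be split between them and their levels, above all between lines, are uncertain. RefSeq annotates PSMB8-AS1 over 1292 bases of TAP1 and RGL2 over 1919 bases of TAPBP, and without a stated strand setting their reads could not be told apart from those of the members.

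Stretches of 5 promoters are printed because their genes moved in different directions under the combination of both agents, as given below. Sequences are from RefSeq (GRCh38.p14), 5′ to 3′ on the strand of the gene, and capitals mark letters of the motifs searched on both strands, namely the core of the interferon-stimulated response element (ISRE, which is GAAA, then any 2 bases, then GAAA), the CCAAT box, the letters TGACG of the cAMP response element and the kappaB palindrome of NF-kappaB. The HLA-B stretch (chr6:31357223-31357364, minus strand) holds, as its first capitals, the kappaB palindrome, then TGACG and CCAAT in both orientations. The B2M stretch (chr15:44711365-44711480, plus strand) holds overlapping copies of the ISRE core, TGACG and an inverted CCAAT. The TAP1 stretch (chr6:32853815-32853846, minus strand) lies in the interval shared with PSMB9 and holds overlapping, inverted copies of the ISRE core, while those of TAP2 (chr6:32838762-32838805, minus strand) and TAPBP (chr6:33314079-33314106, minus strand) hold the core in the forward orientation.
HLA-B: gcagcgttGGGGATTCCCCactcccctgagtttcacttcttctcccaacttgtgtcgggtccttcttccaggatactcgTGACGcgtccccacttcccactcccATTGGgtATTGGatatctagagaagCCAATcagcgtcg
B2M: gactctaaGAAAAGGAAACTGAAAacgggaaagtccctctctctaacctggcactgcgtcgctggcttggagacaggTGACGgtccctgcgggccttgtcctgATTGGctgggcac
TAP1: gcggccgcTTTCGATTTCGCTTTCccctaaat
TAP2: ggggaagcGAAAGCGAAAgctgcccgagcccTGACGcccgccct
TAPBP: ctttggagGAAAGTGAAAGTGAAAggag

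RefSeq promoters were at hand for 7 of the 9 members, all but HLA-E and NLRC5. In the 250 bases before the start, the ISRE core was found in B2M, TAP1, TAP2 and TAPBP and in 3.02% of 35116 human promoters. The kappaB palindrome was found in HLA-B among the members and in 0.0313% of all promoters, CCAAT in 5 members and 32% of all, and TGACG in 5 members and 21.2% of all. The core of the interferon gamma activation site (TTC, then any 3 bases, then GAA) was in 0 of the 7 windows and in 6.57% of all promoters. These are matches of letters and not measured binding. Only these exact letters were searched. A window without them, such as that of HLA-B or HLA-C for the ISRE core, can still hold a variant of the element.

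The 18 libraries held 19320216 to 59711884 counts, the deepest being those of OCI-AML3, and a count of 0 in a library allows a level of up to 3 counts, or 0.0502 to 0.155 CPM by library totals. CPM below are counts scaled to library size by TMM over all 18 libraries. CD33, SPI1, FLT3 and LYZ, markers of myeloid leukemia cells, were at 13.3 CPM or more in every library, whereas CD68 reached at most 0.353 CPM and MPO ran from 2.32 to 3.15 CPM in OCI-AML3, 15.6 to 29.6 CPM in MV4-11 and 3.89 to 170 CPM in MOLM13. Of the markers of T, B, NK, erythroid and epithelial or stromal cells, the highest were NCAM1 (170 to 225 CPM in OCI-AML3, with the NK genes KLRD1 and NCR1 at 0 counts, and 15.5 to 31.4 CPM in MOLM13), KRT18 (5.92 to 8.21 CPM in MV4-11) and CD3D (0.898 to 6.80 CPM in MOLM13, with CD3E and CD3G at no more than 1 count), and CD79A and COL1A1 stayed at or below 2.96 CPM. In MOLM13 the 4 T cell markers summed to 1.91 to 2.04 CPM with both agents, 6.09 to 6.20 CPM with SNDX-50469, 0.898 to 1.23 CPM with OTX015 and 6.49 to 6.80 CPM in control cells, nearly all of it CD3D, and the 6 myeloid markers to 775 to 805, 1251 to 1284, 786 to 807 and 1157 to 1159 CPM in the same order. The summed NK cell markers of MOLM13, led by NCAM1, were 30.8 to 31.4 CPM with both agents, 16.5 to 17.3 CPM with SNDX-50469, 24.2 to 27.0 CPM with OTX015 and 15.5 to 17.2 CPM in control cells. The mitochondrial share of counts in MOLM13 was 5.74% and 6.01% with both agents, 4.98% and 5.50% with SNDX-50469, 5.60% and 5.56% with OTX015 and 4.36% and 4.83% in control cells. The part of the markers and of this share in the results below was not tested. Replicates varied by a biological coefficient of 13.2% in MV4-11, against 3.06% in MOLM13 and 3.15% in OCI-AML3. MV4-11 control replicate 1 stood apart, with 10.3% of counts from the mitochondrial genome against 5.60% to 6.68% in the other MV4-11 libraries. Replicates of MOLM13 and OCI-AML3 are biologic according to the study. That is not stated for MV4-11, so p-values there reflect only how these samples vary, and this variation may be technical.

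**Figure D1:**
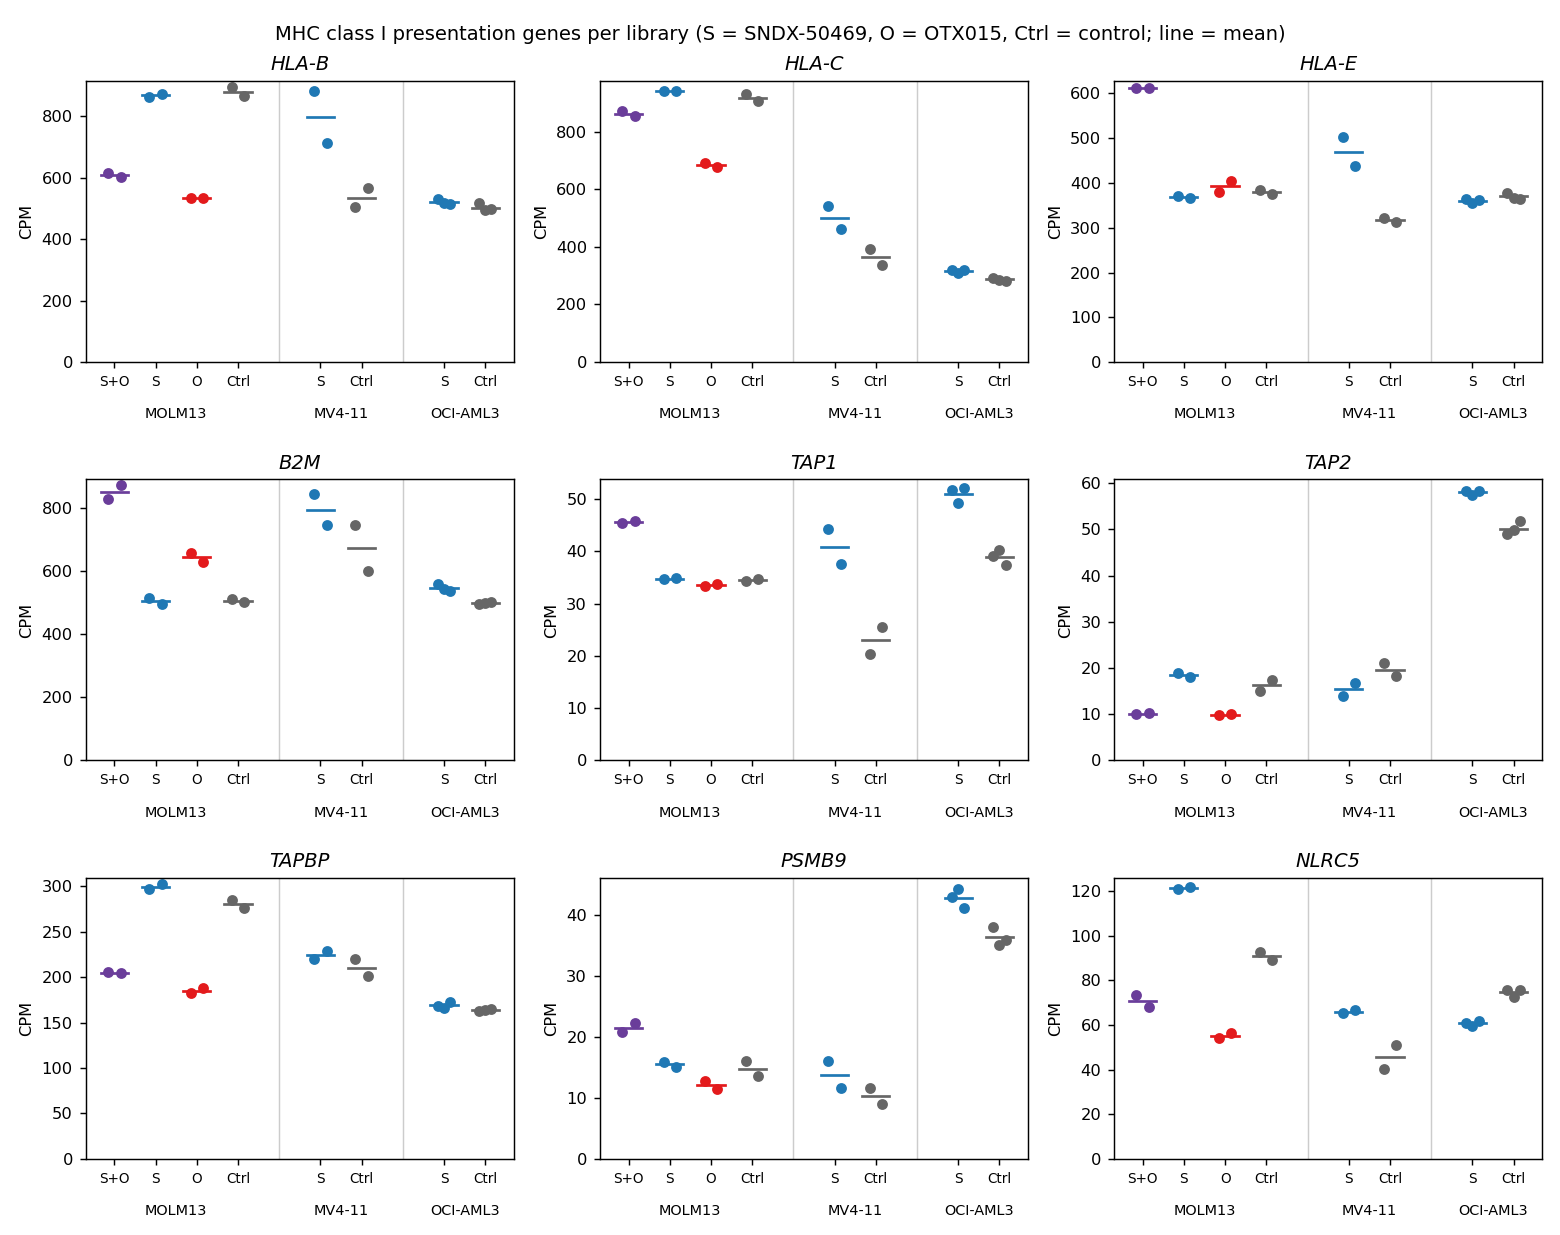
CPM of each member in each of the 18 libraries (points) with the group mean (line), for MOLM13, MV4-11 and OCI-AML3 cells, where S is SNDX-50469, O is OTX015 and Ctrl is control. The 2 MOLM13 libraries with both agents had the highest HLA-E values, 613 and 611 CPM, while TAP2 stood at about 10 CPM there and above 49 CPM in all OCI-AML3 libraries.

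The words rose and fell are kept for members called by edgeR's quasi-likelihood test, with a Benjamini-Hochberg adjusted p under 0.05 over all tested genes and a change of at least 0.32 on the log2 scale, which is the fold limit of the study. Log2 fold changes carry their standard error (SE) and come from the fit of the line's own libraries. The response of MOLM13 cells to Menin inhibition was examined first. SNDX-50469 raised NLRC5, which had 121 and 122 CPM in treated cells and 92.6 and 89.2 CPM in control cells, a log2 fold change of 0.45 ± 0.05 (adjusted p = 9.9e-11). The groups did not overlap. In bulk RNA, a change in the share of cells with a transcript and a change in its amount per cell cannot be told apart. NLRC5 was the only member called, 1 higher and 0 lower of 9, where 13.3% of 14360 tested genes were called in either direction, 8.06% higher and 5.24% lower. That split was 1158 genes higher and 752 lower, while it was 1519 and 524 with no scaling factors, 964 and 983 with no filter on low counts, 689 and 688 by DESeq2, and 720 and 793 with all libraries in 1 fit.

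The heavy chain and light chain genes stayed near control level under SNDX-50469 in MOLM13. HLA-B had 861 and 873 CPM in treated and 894 and 865 CPM in control cells, and its log2 fold change of 0.01 had a 95% interval of -0.06 to 0.08. The intervals were -0.003 to 0.14 for HLA-C, -0.09 to 0.06 for HLA-E and -0.05 to 0.10 for B2M, so changes as large as the fold limit lay outside them. TAPBP (0.13 ± 0.04, adjusted p = 0.0109) passed the p threshold and missed the fold limit. TAP2 (0.21 ± 0.10), PSMB9 (0.10 ± 0.10) and TAP1 (0.04 ± 0.07) did not pass, and the interval of TAP2 reached 0.40. The median over the members was 0.07, against 0.01 over all tested genes.

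OTX015 moved the members apart in MOLM13 cells. HLA-B fell to 534 and 532 CPM under OTX015, against 894 and 865 CPM in control cells, by 0.70 on the log2 scale (SE 0.04, adjusted p = 2.12e-25). B2M, whose product pairs with HLA-B, rose, with 659 and 630 CPM against 511 and 501 CPM (0.38 ± 0.04, adjusted p = 2.05e-13). In neither gene did the treated and control libraries overlap, and HLA-B and B2M transcripts changed in opposite directions.

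TAP2 had 9.78 and 9.95 CPM under OTX015 and 15.1 and 17.4 CPM in control cells (-0.70 ± 0.11). NLRC5 had 54.1 and 56.4 CPM, against 92.6 and 89.2 CPM (-0.69 ± 0.06). TAPBP (-0.57 ± 0.04) and HLA-C (-0.40 ± 0.04) were lower as well, with adjusted p-values of the 4 genes between 3.9e-19 and 8.96e-08. TAP1, the partner subunit of TAP2, stayed at 33.4 and 33.7 CPM, against 34.3 and 34.6 CPM (-0.01 ± 0.07). HLA-E (0.07 ± 0.04) was not called, and PSMB9 (-0.26 ± 0.11, adjusted p = 0.0309) missed the fold limit, though not without control replicate 2 (-0.39) or without OTX015 replicate 1 (-0.34). The count was 1 higher and 5 lower of 9, in a comparison where 48.1% of all tested genes were called, 23.5% higher and 24.7% lower, and the members' median was -0.40 against 0.01 over all tested genes.

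Under the combination of both agents 4 members rose and 4 fell, where 62.1% of tested genes were called, 31.2% higher and 30.9% lower. HLA-E rose to 613 and 611 CPM in cells with both agents, against 384 and 376 CPM in control cells (0.68 ± 0.04, adjusted p = 9.2e-25). B2M rose to 828 and 872 CPM, against 511 and 501 CPM (0.74 ± 0.04, adjusted p = 6.62e-27). In both genes each library with both agents lay above each control library.

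PSMB9, the immunoproteasome subunit, had 20.8 and 22.3 CPM with both agents and 16.0 and 13.6 CPM in control cells (0.54 ± 0.10, adjusted p = 2.05e-06). Its neighbour TAP1 had 45.4 and 45.7 CPM, against 34.3 and 34.6 CPM (0.40 ± 0.07, adjusted p = 3.71e-07). For both genes each treated library lay above each control library.

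The 4 members that fell with both agents were TAP2, HLA-B, TAPBP and NLRC5. TAP2 had 10 and 10.2 CPM, against 15.1 and 17.4 CPM in control cells (-0.69 ± 0.11). HLA-B had 615 and 601 CPM, against 894 and 865 CPM (-0.54 ± 0.04). TAPBP stood at -0.46 ± 0.04. NLRC5 had 73.3 and 68.0 CPM with both agents, against 92.6 and 89.2 CPM (-0.37 ± 0.05, adjusted p = 1.37e-08), and it missed the fold limit without replicate 2 of the combination (-0.31), with upper-quartile factors (-0.32), with no scaling factors (-0.27) and by limma-voom with quantile normalization (-0.31). HLA-C, with 871 and 857 CPM against 930 and 908 CPM (-0.09 ± 0.04), was not called, and its value was 0.003 with no scaling factors and 0.11 by limma-voom. Of the members with the ISRE core in the printed promoters, B2M and TAP1 were thus higher and TAP2 and TAPBP lower, and PSMB9, without that core in its own window, was higher.

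**Figure D2:**
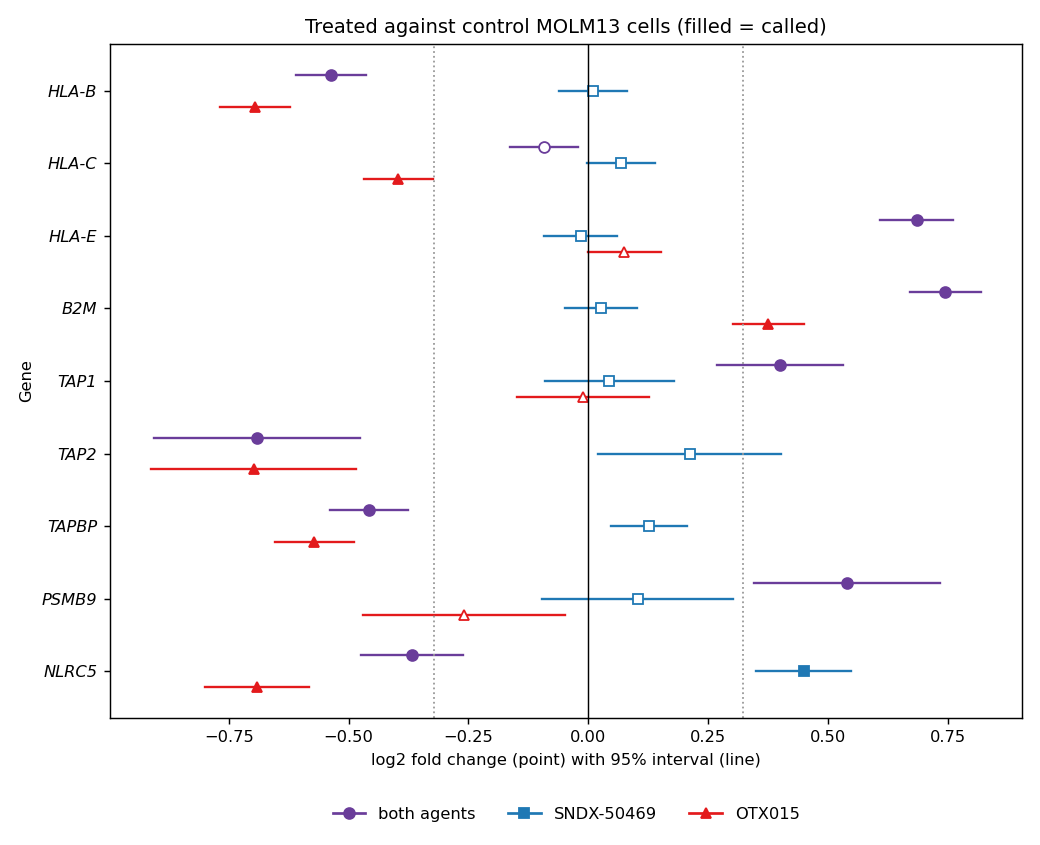
Log2 fold change of each member (points) with its 95% interval (lines) in MOLM13 cells treated with both agents, SNDX-50469 or OTX015, against control cells, where filled points passed the adjusted p and the fold limit and dotted lines mark the fold limit. HLA-E, B2M, TAP1 and PSMB9 lie right of the dotted line with both agents, and HLA-B, TAP2, TAPBP and NLRC5 lie left of it.

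The combination was next set against each single agent. These comparisons share the libraries with both agents, and those of the earlier ones, so they are not independent of them. Against OTX015 alone, 5 members were higher and 0 lower, where 34.9% of tested genes were called, 18.4% higher and 16.5% lower. They were PSMB9 (20.8 and 22.3 CPM with both agents, 12.8 and 11.5 CPM with OTX015, 0.80 ± 0.10), HLA-E (0.61 ± 0.04), TAP1 (0.41 ± 0.07), B2M (0.37 ± 0.04) and NLRC5 (0.32 ± 0.06), the last at the fold limit and below it without OTX015 replicate 1 (0.29), without replicate 1 of the combination (0.27) or with no filter on low counts (0.30). HLA-C (0.30 ± 0.04, adjusted p = 1.07e-10) missed the fold limit narrowly. It was called with upper-quartile factors (0.355), with no scaling factors (0.355), by limma-voom (0.44) and with all libraries in 1 fit (0.33). TAP2 stood at 0.01 ± 0.12. Against SNDX-50469 alone, where 57% of tested genes were called, 27.9% higher and 29% lower, B2M (0.72 ± 0.04), HLA-E (0.70 ± 0.04), PSMB9 (0.44 ± 0.10) and TAP1 (0.36 ± 0.07) were higher and TAP2 (-0.90 ± 0.11), NLRC5 (-0.82 ± 0.05), TAPBP (-0.58 ± 0.04) and HLA-B (-0.55 ± 0.04) lower.

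Whether both agents did more than the sum of each was tested as the interaction, the effect of SNDX-50469 in the presence of OTX015 minus its effect in its absence. It was positive for 4 members and negative for 0, where 24.2% of tested genes were called, 11.5% higher and 12.7% lower. PSMB9 departed by 0.70 ± 0.14 (adjusted p = 8.08e-05), since the single-agent changes summed to -0.16 and both agents gave 0.54. HLA-E departed by 0.63 ± 0.05 (adjusted p = 5.85e-15), with 0.06 for the sum and 0.68 for both agents. TAP1 departed by 0.37 ± 0.10 (adjusted p = 0.00173) and B2M by 0.34 ± 0.05 (adjusted p = 3.63e-07), and B2M was under the fold limit without OTX015 replicate 2 or without replicate 2 of the combination (0.31 in each case).

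For HLA-E, TAP1 and PSMB9 neither single agent alone gave a called change in MOLM13, so a called rise was seen there only with both agents together. PSMB9 under OTX015 alone (-0.26 ± 0.11) passed the p threshold and missed the fold limit. HLA-C (0.23 ± 0.05, adjusted p = 0.000174) and HLA-B (0.15 ± 0.05, adjusted p = 0.0213) departed upward by less than the fold limit. By limma-voom the departure of HLA-C was called (0.33). For TAPBP (-0.01 ± 0.06), NLRC5 (-0.13 ± 0.08) and TAP2 (-0.20 ± 0.15) no departure was called, with 95% intervals of -0.13 to 0.10, -0.28 to 0.02 and -0.51 to 0.10. The median departure was 0.23 over the members and -0.01 over all tested genes.

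**Figure D3:**
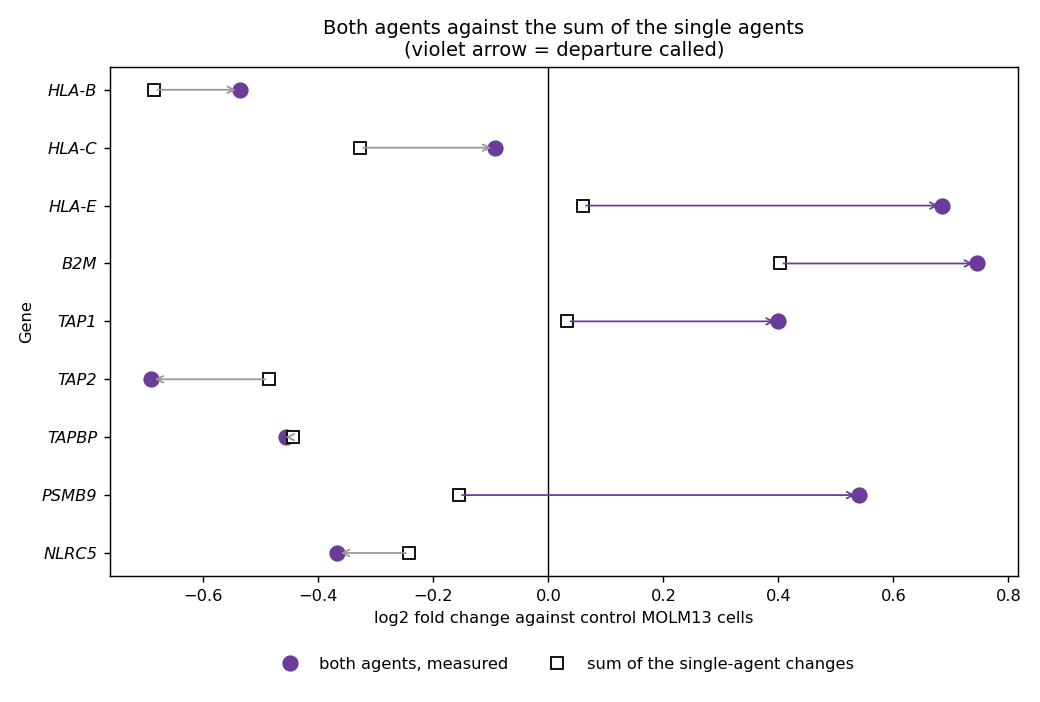
Log2 fold change against control MOLM13 cells with both agents (violet circles) and the sum of the single-agent changes (open squares), by gene, with violet arrows where the departure was called. The arrows of HLA-E, B2M, TAP1 and PSMB9 run to the right, the longest being that of PSMB9, which was at 0.54 with both agents while the single-agent changes summed to -0.16.

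Other genes of the pathway were counted from lists chosen with earlier results of these data known. At most the 3 largest called changes per list are named. Both agents gave calls in 62.1% of all tested genes, 31.2% higher and 30.9% lower. With both agents all 4 further immunoproteasome and activator genes fell, among them PSMB8 (-1.08 ± 0.05), the catalytic partner of PSMB9, PSMB10 (-0.98 ± 0.08) and PSME2 (-1.21 ± 0.05), a subunit of the proteasome activator PA28. The 3 constitutive catalytic subunits fell too, led by PSMB5 (-1.36 ± 0.05). Of 6 trimming and loading genes 5 fell and 0 rose, with the chaperone CALR (-1.61 ± 0.04), the peptidase ERAP2 (-1.16 ± 0.09) and the disulfide isomerase PDIA3 (-0.92 ± 0.04). PSMB9 and TAP1 rose, while most of the genes in these lists fell.

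The remaining lists, also with both agents, were mixed in direction from list to list. All 4 interferon gamma receptor and kinase genes rose, led by JAK1 (1.88 ± 0.05), JAK2 (0.85 ± 0.08) and IFNGR2 (0.72 ± 0.06). Of 7 transcription factors of class I promoters 3 rose and 3 fell, IRF1 (1.18 ± 0.07) and IRF2 (1.17 ± 0.08) among the higher and RFXANK (-0.74 ± 0.06), a subunit of the RFX complex that binds with NLRC5, among the lower. Of 11 tested interferon-stimulated genes outside presentation 9 rose and 0 fell, with a median of 2.25, led by IFI6 (4.14 ± 0.19), OAS1 (3.27 ± 0.39) and GBP2 (2.79 ± 0.18). Of 3 tested class I-like heavy chains MR1 (0.95 ± 0.07), which presents vitamin metabolites, rose and FCGRT (-1.60 ± 0.12), the neonatal Fc receptor, fell.

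OTX015 alone gave calls in 48.1% of all tested genes, 23.5% higher and 24.7% lower. With it the further immunoproteasome genes (4 of 4), the constitutive subunits (3 of 3) and the trimming and loading genes (6 of 6) fell. PSMB8 was at -1.28 ± 0.05, PSMB5 at -0.76 ± 0.05 and ERAP2 at -2.25 ± 0.11. The interferon-stimulated genes were 5 of 11 higher and 3 lower, led by IFI6 (2.64 ± 0.24), and JAK1 (1.26 ± 0.05) was the 1 of 4 receptor and kinase genes that rose. SNDX-50469 alone gave calls in 13.3% of all tested genes, 8.06% higher and 5.24% lower. With it 3 of 11 interferon-stimulated genes rose and 0 fell, namely IFI6 (1.64 ± 0.27), CXCL10 (1.47 ± 0.34) and IRF9 (1.42 ± 0.39). JAK1 rose (0.35 ± 0.06) while PSMB5 fell (-0.37 ± 0.05). There 0 of 4 immunoproteasome and 0 of 6 trimming and loading genes were called, and CIITA (1.54 ± 0.19), the class II relative of NLRC5, was the 1 of 7 transcription factors that rose.

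Ratios of CPM per kb of transcript within each library were formed after the values had been seen, and are given as a description with no test. B2M to the sum of HLA-B, HLA-C and HLA-E was 0.729 and 0.779 with both agents, 0.414 and 0.397 with SNDX-50469, 0.739 and 0.707 with OTX015, and 0.406 and 0.409 in control MOLM13 cells. TAP1 to TAP2 was 9.54 and 9.39 with both agents, 3.86 and 4.05 with SNDX-50469, 7.18 and 7.11 with OTX015, and 4.76 and 4.17 in control cells. HLA-E made up 20.0% and 20.2% of the heavy chain sum with both agents, against 11.3% and 11.4% in control cells. Every MOLM13 library with OTX015 in it lay above every MOLM13 library without it in all of these ratios.

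**Figure D4:**
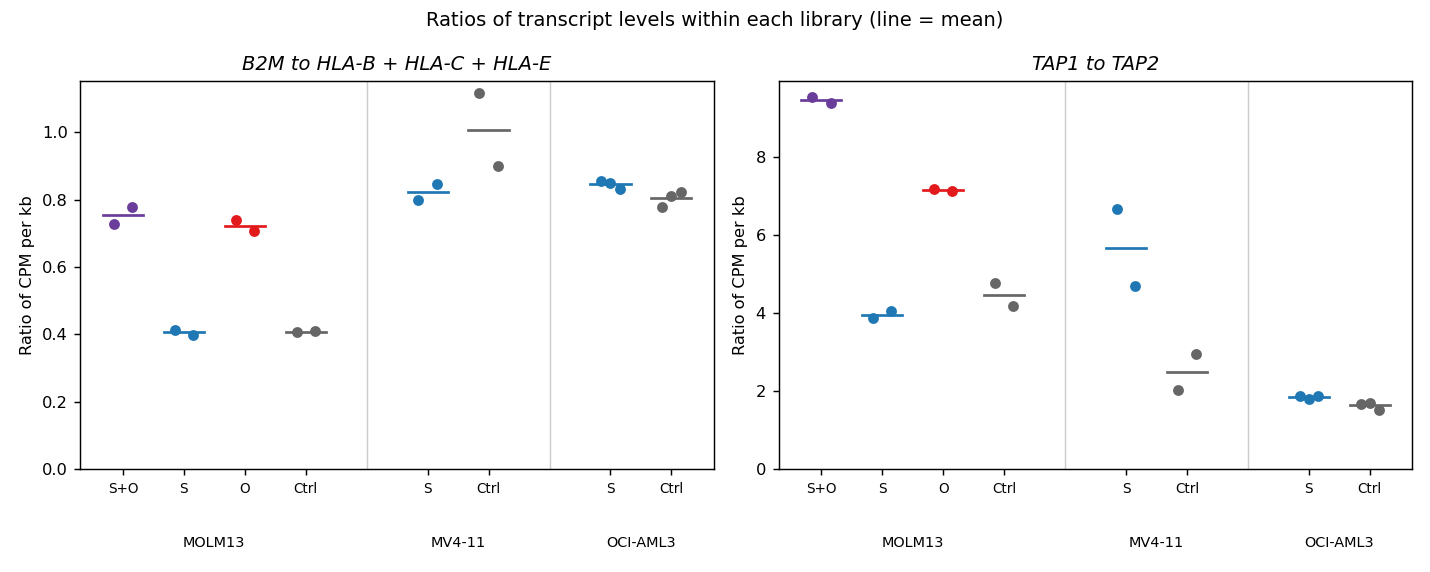
Ratio of B2M to the summed HLA-B, HLA-C and HLA-E levels (left) and of TAP1 to TAP2 (right), as CPM per kb in each library (points) with group means (lines). In MOLM13 the TAP ratio was 9.54 and 9.39 with both agents and 4.76 and 4.17 in control cells, in MV4-11 it was 6.65 and 4.68 with SNDX-50469 and 2.04 and 2.94 in control cells, and in OCI-AML3 it was 1.80 to 1.88 with SNDX-50469 and 1.52 to 1.70 in control cells.

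The same Menin inhibitor was compared with control in MV4-11 cells, at 1000 nM. Here 5 members rose and 0 fell, where 20.7% of 15486 tested genes were called, 11.4% higher and 9.34% lower. With all 18 libraries in 1 fit 7 members were called, 6 higher and 1 lower, among 5934 called genes (2958 higher and 2976 lower). The biological coefficient of that fit was 6.14%, against 13.2% for the MV4-11 libraries alone. Its larger number of calls is thus no added evidence. TAP1 had 44.3 and 37.5 CPM in treated and 20.4 and 25.5 CPM in control cells (0.85 ± 0.17, adjusted p = 0.00253). HLA-E had 502 and 438 CPM, against 322 and 312 CPM (0.59 ± 0.16, adjusted p = 0.0136). HLA-B had 882 and 712 CPM, against 505 and 565 CPM (0.59 ± 0.17, adjusted p = 0.0209). Treated libraries lay above control libraries in all of these genes.

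NLRC5 (65.3 and 66.6 CPM in treated, 40.2 and 51.0 CPM in control cells, 0.55 ± 0.16, adjusted p = 0.0243) and HLA-C (0.48 ± 0.16, adjusted p = 0.0447) completed the 5. TAP1 kept its call without any 1 of the 4 libraries, at 0.68 to 1.04. The other 4 members were not called without control replicate 1, the library with the high mitochondrial share, at 0.49 for HLA-B, 0.57 for HLA-C, 0.59 for HLA-E and 0.37 for NLRC5, so that HLA-C and HLA-E changed no less than with all libraries. They were not called without treated replicate 1 either, at 0.41 for HLA-B, 0.33 for HLA-C, 0.46 for HLA-E and 0.54 for NLRC5. HLA-C was also not called without control replicate 2 (0.39). PSMB9 (0.44 ± 0.21, adjusted p = 0.139), B2M (0.26 ± 0.17), TAPBP (0.11 ± 0.15) and TAP2 (-0.32 ± 0.18, adjusted p = 0.214) did not pass, and their intervals were wide, from 0.04 to 0.84 for PSMB9. The members' median was 0.48, against 0.00 over all tested genes. The interferon-stimulated genes were 6 of 11 higher and 1 lower, led by IFIT3 (3.09 ± 0.49), and CALR (-0.77 ± 0.18) was among 3 of 6 loading genes that fell, while ERAP2 (1.21 ± 0.21) rose.

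In OCI-AML3 cells 500 nM SNDX-50469 raised TAP1, with 51.6, 49.2 and 52.1 CPM in treated and 39.0, 40.3 and 37.3 CPM in control cells (0.40 ± 0.04, adjusted p = 2.07e-06). It was 1 member higher and 0 lower of 9, where 13.1% of 16611 tested genes were called, 8.58% higher and 4.53% lower. That split was 1426 genes higher and 752 lower, with 1769 and 542 with no scaling factors and 1061 and 1026 by limma-voom with quantile normalization. NLRC5 had 60.8, 59.4 and 62.0 CPM in treated cells, against 75.9, 72.8 and 75.9 CPM in control cells (-0.30 ± 0.03, adjusted p = 7.06e-06), a difference without overlap that missed the fold limit.

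Other members of OCI-AML3 passed the p threshold below the fold limit, with PSMB9 at 0.24 ± 0.04 (adjusted p = 0.000333), TAP2 at 0.21 ± 0.03, HLA-C at 0.14 ± 0.02 and B2M at 0.13 ± 0.02. HLA-B (0.06 ± 0.02), TAPBP (0.05 ± 0.03) and HLA-E (-0.03 ± 0.02) did not pass, the 95% interval of HLA-E being -0.08 to 0.01. TAP1 was therefore raised in a line in which the heavy chain genes changed by less than the fold limit. The interferon-stimulated genes were 9 of 12 higher and 0 lower, led by ISG15 (2.68 ± 0.05), and ERAP2 (0.39 ± 0.03) and CIITA (0.61 ± 0.14) rose.

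**Figure D5:**
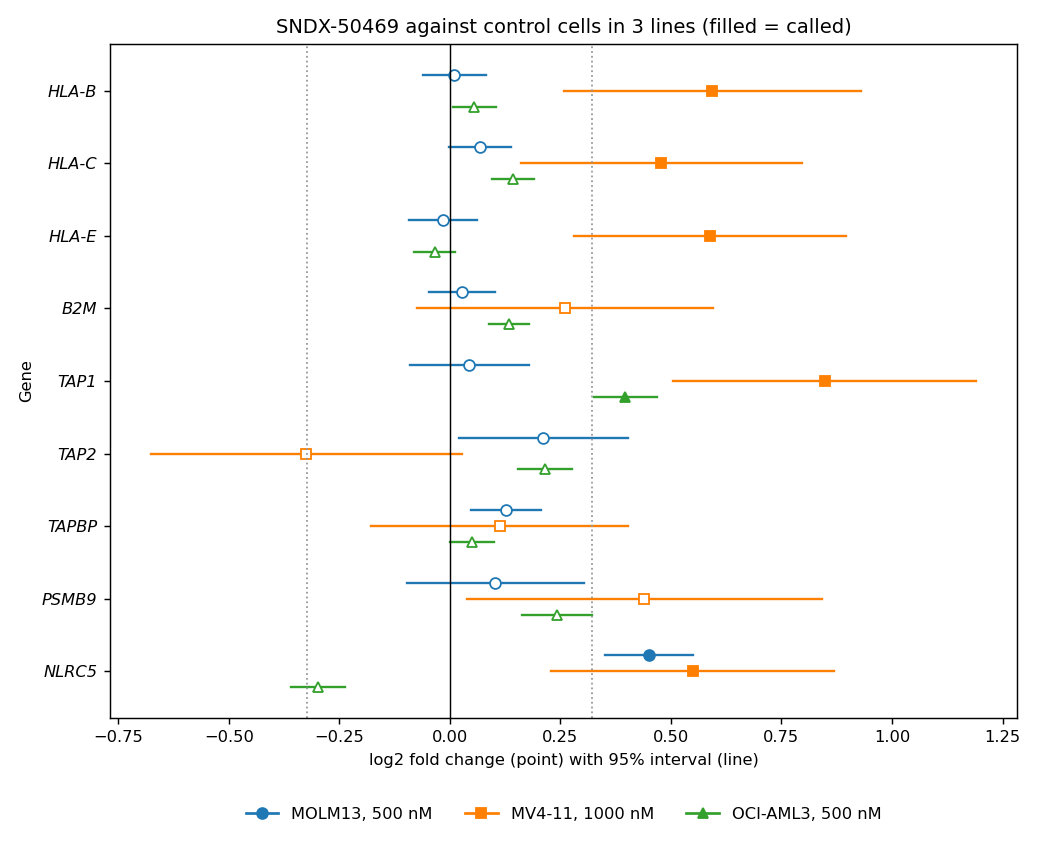
Log2 fold change of each member (points) with its 95% interval (lines) under SNDX-50469 against control in MOLM13 (500 nM), MV4-11 (1000 nM) and OCI-AML3 (500 nM), where filled points were called and dotted lines mark the fold limit. NLRC5 was at 0.45 in MOLM13, 0.55 in MV4-11 and -0.30 in OCI-AML3, and the MV4-11 intervals are the widest.

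The responses of OCI-AML3 and MOLM13 to the same dose were compared in 1 fit of all 18 libraries. NLRC5 responded differently, with a response in OCI-AML3 minus that in MOLM13 of -0.72 ± 0.10 (adjusted p = 9.18e-05), and was 1 of 9 members called, 0 higher and 1 lower, where 4.1% of 17597 tested genes were called, 2.6% higher and 1.49% lower. TAP1 differed by 0.38 ± 0.11 (adjusted p = 0.0674) and was not called in this test, though DESeq2 called it (0.39, adjusted p = 0.0357). For the other 7 members no difference was called, and the intervals were -0.12 to 0.26 for HLA-B and -0.15 to 0.16 for HLA-E. The MV4-11 response, at another dose, was not tested against the others.

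Levels in control cells were compared per kb of transcript, which allows genes to be set beside each other. In MOLM13 the order was HLA-C (596 ± 10.4 CPM per kb, SD, n = 2), HLA-B (573 ± 13.1), B2M (537 ± 7.56), HLA-E (149 ± 2.09), TAPBP (81.2 ± 1.77), PSMB9 (14.6 ± 1.74), NLRC5 (13.4 ± 0.358), TAP1 (12.8 ± 0.0793) and TAP2 (2.89 ± 0.290). PSMB9 and NLRC5 overlapped between libraries in that order. In OCI-AML3 B2M came first (529 ± 4.65 CPM per kb, n = 3), before HLA-B (327 ± 7.82), HLA-C (186 ± 3.22) and HLA-E (145 ± 2.86), and PSMB9 (35.8 ± 1.49) stood above TAP1 (14.5 ± 0.552), NLRC5 (11.0 ± 0.265) and TAP2 (8.89 ± 0.246). In MV4-11 B2M was at 715 ± 109.7 CPM per kb (n = 2), HLA-B at 348 ± 27.4, HLA-C at 237 ± 25.3, HLA-E at 124 ± 2.82, PSMB9 at 10.2 ± 1.79, TAP1 at 8.54 ± 1.35, NLRC5 at 6.72 ± 1.12 and TAP2 at 3.48 ± 0.348, with PSMB9 and TAP1 overlapping.

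Between lines, control MOLM13 cells had higher HLA-C (1.68 ± 0.06), HLA-B (0.81 ± 0.07) and TAPBP (0.77 ± 0.05) and lower TAP2 (-1.62 ± 0.08) and PSMB9 (-1.30 ± 0.11) than control OCI-AML3 cells, 3 higher and 2 lower where 64.2% of tested genes were called, 30.5% higher and 33.7% lower. HLA-E (0.04 ± 0.06) and B2M (0.02 ± 0.07) were not called in that comparison. The line, the library depth and, for MV4-11, the medium cannot be told apart here. Control MV4-11 cells against control OCI-AML3 cells had 3 members higher and 4 lower (67.4% called, 34.3% higher and 33.1% lower), with PSMB9 (-1.83 ± 0.12), TAP2 (-1.36 ± 0.08), TAP1 (-0.75 ± 0.08) and NLRC5 (-0.71 ± 0.07) lower. The 3 higher ones, B2M (0.43 ± 0.07), TAPBP (0.36 ± 0.05) and HLA-C (0.35 ± 0.07), were not called without MV4-11 control replicate 1, at 0.26, 0.29 and 0.23. TAPBP and HLA-C were not called with no scaling factors (0.30 and 0.28) or with no filter on low counts (0.28 and 0.26) either, which left B2M as the 1 member higher. Control MOLM13 against control MV4-11 cells had 6 members higher, led by HLA-C (1.33 ± 0.07) and NLRC5 (0.99 ± 0.08), and 1 lower, B2M (-0.41 ± 0.08, and -0.25, not called, without MV4-11 control replicate 1), where 63.5% were called, 29.3% higher and 34.2% lower. Without scaling factors the median over all genes shifted by -0.20 for MOLM13 against OCI-AML3 and by -0.14 for MOLM13 against MV4-11, and by limma-voom it shifted by 0.12 in each, so line differences of that size depend on the scaling.

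Across the 8 group means HLA-B varied most like TAPBP among the members (Pearson r of log2 CPM 0.92), and TAP2 like PSMB9 (0.78). PSMB9 and TAP1 had r = 0.75, whereas TAP1 and TAP2 had r = 0.28 and HLA-B and B2M r = -0.09. TAP2 and PSMB9 were both highest in OCI-AML3, while with both agents in MOLM13 TAP2 fell (-0.69) and PSMB9 rose (0.54). The correlations are descriptions over 8 points that share lines and controls. Among 9060 other genes with a mean of at least 10 CPM, those most like HLA-B were ATXN7L2 (0.94), MAP3K10 (0.94), SLC35E1 (0.93), SNAI3 (0.93) and ZNF395 (0.93), and those most like NLRC5 were NDRG2 (0.93), TMUB1 (0.92), HDAC8 (0.91), IL27RA (0.90) and MLKL (0.90).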

How the data were processed

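Total RNA of 18 libraries in 8 groups of MOLM13, MV4-11 and OCI-AML3 cells was sequenced. The authors deposited whole-number read counts per Ensembl gene ID, not normalized. Per the labels the reads were aligned with STAR to hg38, whereas the study's methods name TopHat2 and Cufflinks2, so the aligner is unsure. The counting step (program, strand, annotation) was not given in the sources used here. Symbols were matched for 40894 of the 58037 IDs. Tests used edgeR 4.0.16 under R 4.3.3, with limma 3.58.1 and DESeq2 1.42.0 for alternatives, by glmQLFit and glmQLFTest, with TMM scaling, filterByExpr and a group-means model, per line or, between lines, over all libraries. The SE is the log2 fold change divided by the square root of F. CPM values use TMM factors over all 18 libraries, so their ratio can differ slightly from the fitted fold change, and CPM per kb divides them by the length of the Ensembl canonical transcript (GENCODE v44, lengths only). Floors of 3 counts cover counting error only, since PCR reads are not independent molecules. Replicate pairs differed by 1.46 to 43.9 chi-square units per degree of freedom and were all kept as separate samples. The MV4-11 libraries are numbered 1 and 2 in titles, which were used, and otherwise in descriptions. The members, the lists and the rule for named genes (all 9 members, and at most 3 called genes of each other list per comparison) were chosen with earlier results of these data known. Some genes of the lists are not reported here by name. The code was tested on simulated data. Alternatives were other scalings, no filter, no fold limit, limma-voom with quantile normalization, DESeq2, a replicate block, all libraries in 1 fit, and leaving out each library. Figures used Python 3.11.15 and matplotlib 3.10.9.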

Additional observations from a re-analysis of the deposited data

Results flagged for a closer look

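NLRC5 responded to 500 nM SNDX-50469 in opposite directions in OCI-AML3 and MOLM13, and a test of the difference itself picked it out, with a response in OCI-AML3 minus that in MOLM13 of -0.72 ± 0.10 (edgeR adjusted p = 9.18e-05, n = 3 and 2 libraries per group).

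Members for which every treated library of MV4-11 moved one way and every treated library of another line the other way were picked out without a test of the difference, and the dose in MV4-11 was 1000 nM. NLRC5 was at 0.55 in MV4-11 and -0.30 in OCI-AML3. HLA-E was at 0.59 in MV4-11, -0.02 in MOLM13 and -0.03 in OCI-AML3. TAP2 was at -0.32 in MV4-11 and at 0.21 in both MOLM13 and OCI-AML3. These differences were not tested, and in MOLM13 and OCI-AML3 the HLA-E values were within the spread of an uncalled change. TAP2 was called in none of the lines, with edgeR adjusted p = 0.214 in MV4-11 and 0.0874 in MOLM13. With 2 libraries per group, unchanged genes can also meet this rule, and the share of all genes that meet it was not counted.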

How the results depend on the processing

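Of 770 recomputed values of the 58 called member results, 740 kept their call, 30 lost it (10 of them in MV4-11) and 0 changed sign. Leaving out a library gave 1 to 6 members called under SNDX-50469 in MV4-11 and 4 to 7 in control MV4-11 against control OCI-AML3. With no fold limit 2 members were called under SNDX-50469 in MOLM13, 8 with both agents against OTX015 and 6 in OCI-AML3, and DESeq2 called 2 in the response of OCI-AML3 minus MOLM13. With no fold limit all genes called were 4691 for SNDX-50469 in MOLM13 (1910 with it) and 6338 in OCI-AML3 (2178 with it). With all libraries in 1 fit 5934 genes were called in MV4-11, against 3208 in the fit of its own libraries. That fit of all libraries, whose biological coefficient was 6.14% against 13.2% for MV4-11 alone, called 7 members in MV4-11, 6 higher and 1 lower.

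Signs that turned were those of values not called in the main fit, and not all were near 0. HLA-C with both agents passed the p threshold in either direction, at -0.09 (edgeR adjusted p = 0.0183) and 0.11 (limma-voom adjusted p = 0.000874). B2M (-0.21, limma-voom adjusted p = 0.00109) and HLA-E (-0.16, limma-voom adjusted p = 0.00123) passed it in control MOLM13 against control OCI-AML3. HLA-E in OCI-AML3 passed it as well (0.077, limma-voom adjusted p = 0.0178). Under SNDX-50469 in MOLM13, HLA-B was at -0.0097 with RLE factors, -0.0096 with DESeq2, -0.023 with no filter and -0.021 in 1 fit of all libraries, HLA-E at 0.0086 with upper-quartile, 0.033 with no factors and 0.036 by limma-voom, and B2M at -0.0065 with no filter and -0.0035 in 1 fit. TAP1 was at 0.033 under OTX015 with no factors. With both agents HLA-C was at 0.0030 with no factors and 0.11 by limma-voom, and against SNDX-50469 at 8.85e-05 by limma-voom, while TAP2 against OTX015 was at -0.017 with no filter and -0.047 by limma-voom. The departure of TAPBP was 0.015 with RLE and with DESeq2, 0.016 with upper-quartile and 0.049 in 1 fit. HLA-E in OCI-AML3 was at 0.020 with no factors and 0.077 by limma-voom, and in the difference between lines at -0.025 with upper-quartile and -0.012 with no factors, with TAP2 at -0.0040 with upper-quartile. In control MOLM13 against control OCI-AML3, HLA-E was at -0.16 with no factors, -0.021 with no filter and -0.16 by limma-voom, and B2M at -0.0084 with upper-quartile, -0.18 with no factors, -0.038 with no filter and -0.21 by limma-voom. Leaving out 1 library gave ranges across 0 of -0.022 to 0.036 for HLA-B, -0.039 to 0.0012 for HLA-E and -0.025 to 0.23 for PSMB9 (SNDX-50469 in MOLM13), -0.0086 to 0.019 for TAP2 (both agents against OTX015), -0.040 to 0.015 for TAPBP (departure), -0.0026 to 0.026 for HLA-E and -0.074 to 0.13 for TAP2 (difference between lines), -0.00049 to 0.027 for B2M (control MOLM13 against OCI-AML3) and -0.018 to 0.16 for HLA-B (control MV4-11 against OCI-AML3). The cause was not tested.

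Same-numbered libraries did not deviate together (correlations of -0.02 to 0.06), which cannot show whether they were prepared as pairs. Over all tested genes in MV4-11, a block on the replicate number gave 4029 calls, against 3208 without it. With the replicate number as a block 1, 6, 8, 8, 5, 4, 5, 1, 1, 5, 7 and 7 members were called in the 12 comparisons, as without the block, and 0 of 108 member calls changed. Precision was lower for members with few counts, the lowest being TAP2 with 186 counts in a library, whose SE under OTX015 was 0.11 against 0.04 for HLA-B in the same libraries.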
